A study of Rattus norvegicus with 3 samples.

Results

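The TGF-beta and BMP (bone morphogenetic protein) signalling genes of rat motor cortex were examined as 1 module. Its members were chosen by gene name, not by level: every row whose symbol names a BMP, GDF or TGF-beta, an inhibin subunit (Inha, Inhbb, Inhbc or Inhbe), a receptor of the Bmpr, Acvr or Tgfbr series, a SMAD, or the antagonists Nog, Chrd and Fst. This gave 53 of 30957 listed genes, under 52 symbols, since Tgfbr1 is listed under 2 gene IDs. The motor cortex came from 3 untreated male rats of the outbred Sprague-Dawley stock, numbered 32, 39 and 68, with 1 mRNA library each. The labels put them in 1 group, called normal, with a time of 8 weeks that is not said to be an age. No other genotype, agent or group was analysed here, so the data show levels and how far untreated animals differ.

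Ligands of this family are secreted dimers. They bring together type II and type I receptors, both serine/threonine kinases, and the type II receptor phosphorylates the type I receptor, which then phosphorylates receptor-regulated SMAD proteins. Smad2 and Smad3 carry TGF-beta and activin signals, and Smad1, Smad5 and Smad9 carry BMP signals. Both sets bind the shared partner Smad4 and enter the nucleus, Smad6 and Smad7 oppose them, and noggin, chordin and follistatin bind ligands outside the cell. In the brain the pathway is known for roles in patterning, astrocyte formation, vessel stability and synapses.

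Values are given in the order of animals 32, 39 and 68 unless said otherwise. They are FPKM, the fragments counted for a gene divided by its length and by the library size, so levels can be compared between genes as far as gene models and mappability allow. The depth inferred from short loci was 16550241, 15460924 and 17670986 fragments in animals 32, 39 and 68, so that 1 FPKM stood for 15.5 to 17.7 fragments per kilobase. The glutamatergic neuron markers that define cortex were abundant: Nrgn at 991, 918 and 530 FPKM, Camk2a at 725, 736 and 593.5 and Slc17a7 at 521, 537 and 495. All 3 libraries differed in the choroid plexus gene Ttr, with 8.36, 615 and 7264 FPKM. Animal, dissection and library preparation cannot be told apart with 1 library an animal. The spread reported is that between these 3 rats. In this bulk tissue, fewer cells of a type and less RNA per cell cannot be told apart either.

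Most members were detected. Averaged over animals, 37 of the 53 members (69.8%) reached 1 FPKM, against 43.2% of all listed genes, and this level is the filter used from here on. Of these, 35 were at 1 FPKM or more in every animal. Follistatin (Fst) was under 1 FPKM in animal 68, and Gdf15 passed through its value in animal 68 alone. A further 10 members were above 0 with a mean under 1 FPKM, and 6 rows were listed at 0 in every library. Loci are given in the Rnor_6.0 build, and no exon or UTR annotation of that build was used here.

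**Figure D1:**
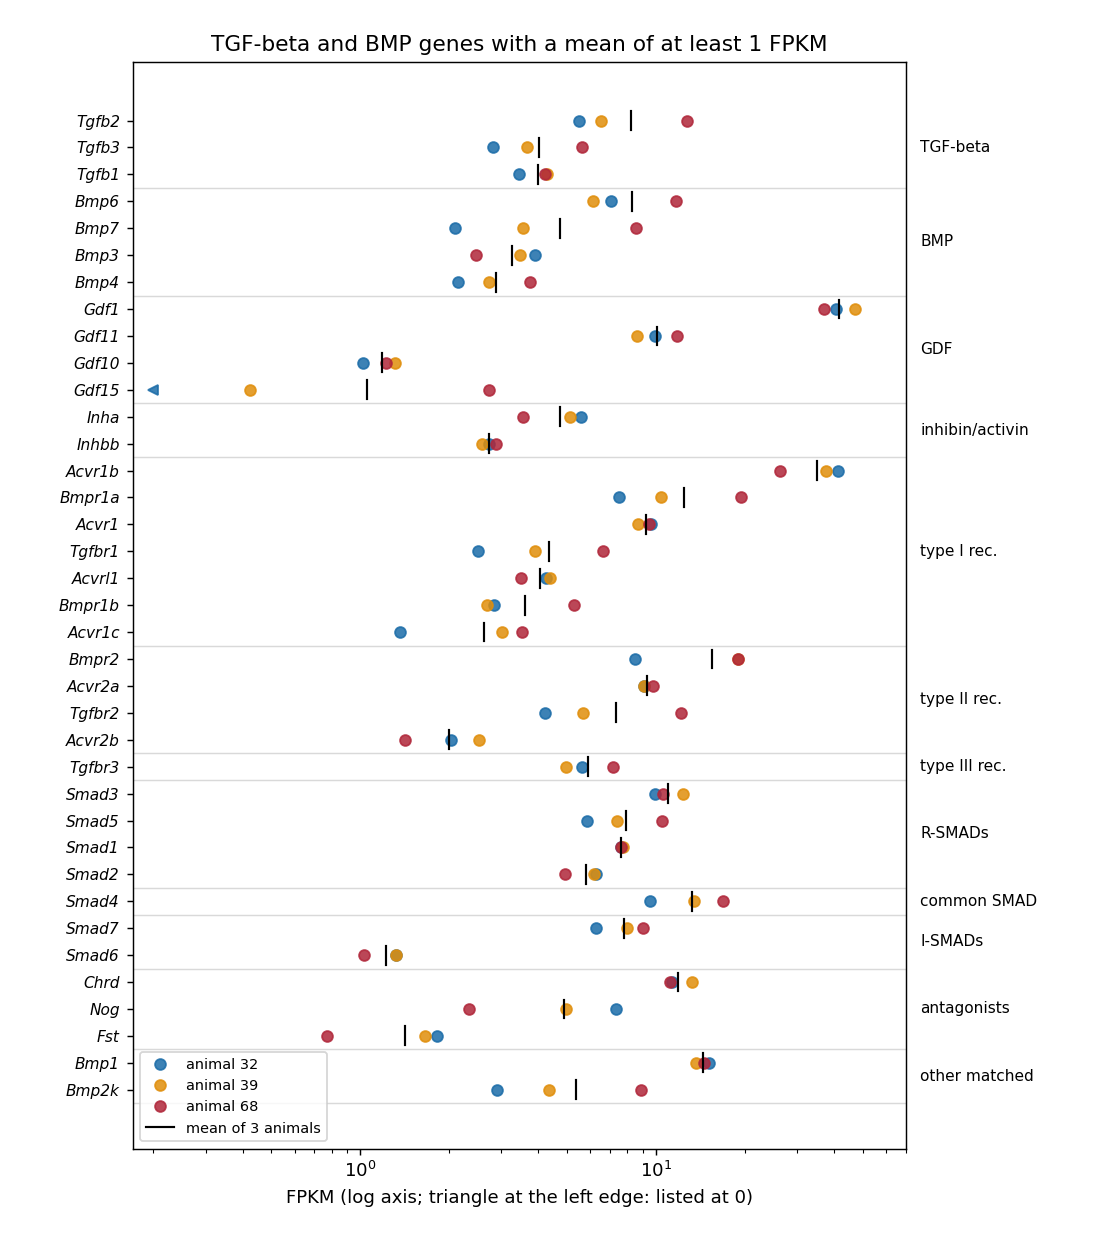
FPKM of the 37 members with a mean of at least 1 FPKM in each of the 3 animals (coloured points, log axis), grouped by role, with the mean as a bar. Gdf1 and Acvr1b stand to the right of the others, and the points of animal 68 lie to the right for Tgfb2, Bmp7 and several receptors and to the left for Nog and Fst.

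Among the TGF-beta ligands, Tgfb2 was the most abundant. Tgfb2 (chromosome 13, 105039853 to 105141030) measured 5.50, 6.52 and 12.7 FPKM. Tgfb1, the form best known from immune and vascular cells, measured 3.44, 4.29 and 4.21 FPKM. Tgfb3 measured 2.81, 3.65 and 5.60 FPKM. Every Tgfb2 value lay above the Tgfb1 and Tgfb3 values, apart from a Tgfb3 value of 5.60 FPKM in animal 68 that passed the lowest Tgfb2 value. Within animals Tgfb2 exceeded Tgfb3 by 1.97-fold (log2 ratio of Tgfb3 over Tgfb2 -0.98, SE 0.10, n = 3) and Tgfb1 by 1.92-fold (log2 ratio of Tgfb1 over Tgfb2 -0.94, SE 0.31). Tgfb1 and Tgfb3 had log2 ratios of 0.28, 0.23 and -0.40, so their order differed between animals. Of the summed FPKM of the 3 TGF-beta genes, Tgfb2 held 49.4 ± 6.10% (SD, n = 3).

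The BMP ligands were led by Bmp6. Bmp6, a ligand with a known part in iron regulation by the liver, measured 7.03, 6.12 and 11.7 FPKM. Bmp7 (chromosome 3, 170879973 to 170955399), known from meninges and choroid plexus as well as kidney, measured 2.09, 3.54 and 8.58 FPKM. The log2 ratio of Bmp6 over Bmp7 was 1.70, 0.77 and 0.44, so the gap was smallest in animal 68. Bmp4 measured 2.13, 2.71 and 3.76 FPKM. Bmp3, an atypical member that opposes other BMPs, had the opposite order, at 3.90, 3.46 and 2.45 FPKM. Its share of the summed BMP ligand FPKM was 23.5% in animal 32 and 8.82% in animal 68, while that of Bmp7 was 12.6% and 30.8%. Bmp2 stayed under 1 FPKM in all 3 libraries (0.757, 0.790 and 0.567).

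Gdf1 had the highest mean of the 53 members. Gdf1 (chromosome 16, 20845585 to 20860789, minus strand) measured 40.5, 47.1 and 36.8 FPKM, above 94.1% of all listed genes. Gdf1 is known from left-right patterning of the embryo. In mammals it shares a transcript with the ceramide synthase gene Cers1, and no row named Cers1 was found by symbol, so fragments of both reading frames may stand under Gdf1 and its level as a ligand gene is uncertain. Gdf11, a ligand close to myostatin, measured 9.91, 8.59 and 11.7 FPKM. Gdf1 exceeded Gdf11 by 4.10-fold (log2 ratio 2.03, SE 0.23). Gdf10, also called Bmp3b, measured 1.02, 1.31 and 1.22 FPKM. Gdf15, a stress-induced ligand that signals through Gfral and not through SMAD-coupled receptors, was listed at 0 in animal 32 and at 0.425 and 2.73 FPKM in animals 39 and 68. Its receptor gene Gfral was at 2.09, 0.491 and 0.955 FPKM, with animal 32 highest.

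Of the inhibin subunit genes that the rule takes in, Inha and Inhbb passed the filter. The subunit gene Inhba is outside the rule and was not examined. Inha, whose product turns a beta subunit dimer from an activin into an inhibin, measured 5.58, 5.11 and 3.56 FPKM. Inhbb, a beta subunit of activin and inhibin, measured 2.73, 2.57 and 2.87 FPKM. Inha was above Inhbb in 3 of 3 animals (1.69-fold, log2 ratio 0.76, SE 0.23). The liver-associated subunit genes Inhbe and Inhbc were near 0 (0.0208 to 0.0666 FPKM) and listed at 0, in that order.

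Type I receptors were dominated by Acvr1b. Acvr1b (ALK4, the activin receptor; chromosome 7, 142817157 to 142860572) measured 41.1, 37.4 and 26.2 FPKM, so animal 68 was lowest. Bmpr1a (ALK3, a BMP receptor; chromosome 16, 10758527 to 10802512) measured 7.48, 10.4 and 19.4 FPKM in the opposite order. Acvr1 (ALK2) was nearly level at 9.64, 8.65 and 9.47 FPKM. The lowest Acvr1b value was above the highest value of each other type I receptor. Tgfbr1 (ALK5, the TGF-beta receptor; chromosome 5, 63050758 to 63119635) measured 2.51, 3.89 and 6.64 FPKM, and its other gene ID was listed at 0. Acvrl1 (ALK1, an endothelial receptor) measured 4.25, 4.38 and 3.49 FPKM. Bmpr1b (ALK6) measured 2.83, 2.69 and 5.28 FPKM, and Acvr1c (ALK7) 1.36, 3.01 and 3.52 FPKM. Of these, Bmpr1a, Tgfbr1, Bmpr1b and Acvr1c had their highest value in animal 68, and Acvr1b and Acvrl1 their lowest.

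Within animals, Acvr1b exceeded the other receptors that couple to Smad2 and Smad3. Its level was 8.34-fold that of Tgfbr1 (log2 ratios 3.98, 3.23 and 1.96 in animals 32, 39 and 68; mean 3.06, SE 0.59) and 13.5-fold that of Acvr1c (mean 3.76, SE 0.57). Both ratios were smallest in animal 68. Bmpr1a exceeded Bmpr1b by 3.28-fold (log2 ratio 1.71, SE 0.17), and Acvr1 exceeded Acvrl1 by 2.27-fold (log2 ratio of Acvrl1 over Acvr1 -1.18, SE 0.13). These orders held in 3 of 3 animals. The log2 ratio of Acvr1 over Bmpr1a differed in sign, at 0.36, -0.26 and -1.03. The end of the Acvr1b locus overlaps the gene Rn60_7_1407.5 on the opposite strand (3.24 to 4.37 FPKM), and Bmpr2 overlaps LOC100360604 (0.703 to 1.21 FPKM). The strand setting of the counting is not given in the sources used here, so fragments of such overlaps cannot be told apart.

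**Figure D2:**
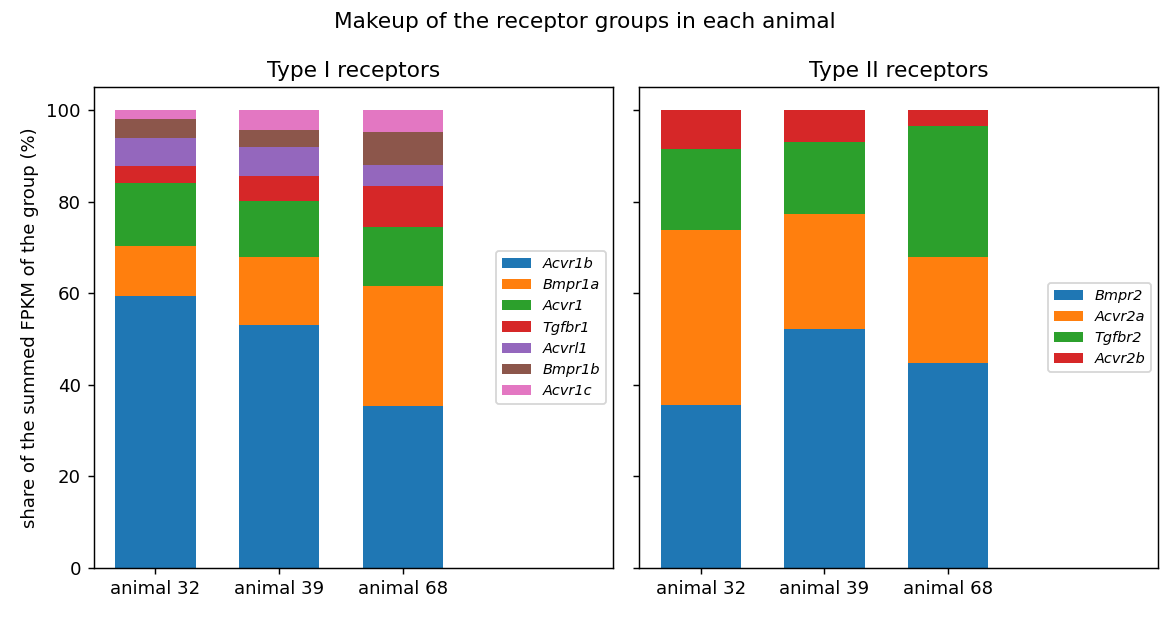
Share of the summed FPKM of the type I receptor genes (left) and type II receptor genes (right) held by each gene in each animal, as stacked bars from 0 to 100%. Acvr1b holds 59.4% in animal 32 and 35.4% in animal 68, Bmpr1a 10.8% and 26.2%, and Tgfbr2 17.7% and 28.7%.

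The summed FPKM of the type I receptors differed less between animals than its makeup. The sums were 69.2, 70.5 and 74.0 FPKM. Acvr1b held 59.4, 53.1 and 35.4% of them, and Bmpr1a 10.8, 14.8 and 26.2%. Tgfbr1 held 3.62, 5.52 and 8.97%. In each of these shares animals 32 and 39 were closer to each other than animal 39 was to animal 68.

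Among type II and type III receptors, Bmpr2 had the highest mean, although Acvr2a was above it in animal 32. Bmpr2 (chromosome 9, 66568074 to 66676494), the BMP type II receptor, measured 8.49 FPKM in animal 32 and 18.9 and 19.0 FPKM in animals 39 and 68, so animal 32 stood alone. Acvr2a, an activin and BMP receptor, was nearly level at 9.09, 9.14 and 9.80 FPKM. Tgfbr2 (chromosome 8, 124312754 to 124399494), the receptor that binds TGF-beta first, measured 4.21, 5.64 and 12.2 FPKM. Acvr2b was lowest of the 4, at 2.02, 2.53 and 1.42 FPKM, and 4.63-fold under Acvr2a (log2 ratio of Acvr2a over Acvr2b 2.21, SE 0.26). Tgfbr3 (betaglycan), a co-receptor that presents Tgfb2, measured 5.60, 4.95 and 7.15 FPKM. Tgfbr2 exceeded its partner Tgfbr1 by 1.63-fold, a ratio that differed little between animals (log2 ratios of Tgfbr1 over Tgfbr2 -0.72, -0.53 and -0.87) although Tgfbr1 and Tgfbr2 were 2.58-fold and 2.85-fold higher in animal 68 than in animal 32. Tgfbr3 over Tgfbr2 differed in sign, at 0.40, -0.19 and -0.76.

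Of the SMADs, 7 of 8 were above 1 FPKM in every animal. Smad4 (chromosome 18, 69627757 to 69671199), the shared partner, had the highest mean, at 9.57, 13.4 and 16.8 FPKM. Smad3, just above Smad4 in animal 32, measured 9.94, 12.3 and 10.6 FPKM and Smad2 6.28, 6.19 and 4.90 FPKM. Smad3 lay above Smad2 in every library, by 1.88-fold (log2 ratio of Smad2 over Smad3 -0.91, SE 0.13). In the BMP arm, Smad1 had the smallest spread of the 37 members, at 7.60, 7.70 and 7.60 FPKM, and Smad5 measured 5.83, 7.36 and 10.5 FPKM. Smad1 over Smad5 was 0.38, 0.06 and -0.46, so neither led in all animals. Smad9 was listed at 0 in all 3 libraries. Genes that every cell uses (Hprt1, Rpl8 and Rps6) were also listed at 0, so a 0 cannot be read as absence.

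The inhibitory SMADs differed in level. Smad7, which opposes both arms and is itself induced by the pathway, measured 6.29, 8.00 and 9.002 FPKM. Smad6, which opposes mainly the BMP arm, measured 1.32, 1.32 and 1.03 FPKM. Smad7 exceeded Smad6 by 5.90-fold (log2 ratio of Smad6 over Smad7 -2.56, SE 0.24) and held 86.1 ± 3.55% of their sum. Smad4 exceeded Smad2 by 2.22-fold (log2 ratio 1.15, SE 0.33) and Smad7 by 1.67-fold (log2 ratio of Smad7 over Smad4 -0.74, SE 0.08), in 3 of 3 animals.

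Among the secreted antagonists, chordin led. Chrd, which binds BMPs and is cut by the Bmp1 protease, measured 11.3, 13.2 and 11.1 FPKM. Nog (noggin; chromosome 10, 76811759 to 76813386) measured 7.35, 4.97 and 2.33 FPKM. Fst (follistatin), which binds activins, measured 1.82, 1.65 and 0.775 FPKM. All 3 genes were lowest in animal 68, with Chrd close to its level in animal 32 and Nog and Fst far under theirs. Chrd exceeded Nog by 2.65-fold on average, with log2 ratios of Nog over Chrd of -0.62, -1.40 and -2.21, and Fst by 8.35-fold (mean 3.06, SE 0.33). The share of chordin in the sum of these antagonists was 55.2, 66.7 and 78.2%.

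Nog is listed with a span of 1628 bases, and with that length its values came to 198, 125 and 67 fragments at the inferred depths. Exact Poisson 95% intervals, which cover counting error only, ran from 6.36 to 8.45 FPKM in animal 32, 4.13 to 5.92 in animal 39 and 1.81 to 2.96 in animal 68. The intervals did not overlap, so the gap between these libraries was larger than the counting error.

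Other proteins carry a BMP name without being ligands. Bmp1, a metalloprotease that cuts chordin and procollagens, measured 15.1, 13.7 and 14.5 FPKM, among the steadiest members. Bmp2k, a kinase first found as induced by BMP2, measured 2.90, 4.36 and 8.88 FPKM, with animal 68 highest.

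The remaining members were rare. Of the members above 0 with a mean under 1 FPKM, Bmp2 was the highest of the BMP ligands and Gdf5, a joint-patterning ligand, of the GDF ligands (0.239, 0.476 and 0.288 FPKM). Bmp15 and Gdf9, both ovarian ligands, were at 0.320 to 0.544 and 0.122 to 0.479 FPKM. Gdf7 was at 0.0364, 0.117 and 0.341 FPKM, which at the inferred depths stands in the ratio of 1, 3 and 10 fragments. Values this low rest on few fragments, and the order of animals is uncertain. Bmp8a, Bmp5 and Gdf6 were at or below 0.337 FPKM in every library, and Gdf3, which overlaps Slc2a3 on the same strand, was above 0 only in animal 39 (0.0337 FPKM). Listed at 0 in every library were Smad9, Inhbc, Bmp10, Bmp8b, Gdf2 and the other Tgfbr1 ID. Bmp8a and Bmp8b are close copies whose fragments could be split or lost.

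In order of level, the ranges of most neighbours overlapped. Of the 37 members past the filter, Acvr1b and the next lower gene, Bmpr2, had ranges over the 3 animals that did not touch (26.2 to 41.1 against 8.49 to 19.0 FPKM). The ranges of every other pair of neighbours overlapped. Compared within animals, the gene with the higher mean was above the next in 3 of 3 animals in 3 of 36 steps, which were Acvr1b over Bmpr2, Chrd over Smad3 and Acvr2b over Fst. Gdf1 was above Acvr1b in 2 of 3 animals. Of 30 pairs of related genes, 26 had both genes past the filter, and in 21 of those the within-animal ratio had the same direction in 3 of 3 animals. In 10 pairs it was also at least 2-fold in every animal. An exact two-sided sign-flip permutation test over 3 animals cannot give less than p = 0.25, so that test can call no pair at 0.05. One of the 21 pairs, Gdf15 under Gdf11, rests on a value of 0. The 5 pairs without a common direction were Tgfb1 with Tgfb3, Acvr1 with Bmpr1a, Bmpr2 with Acvr2a, Tgfbr3 with Tgfbr2 and Smad1 with Smad5.

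**Figure D3:**
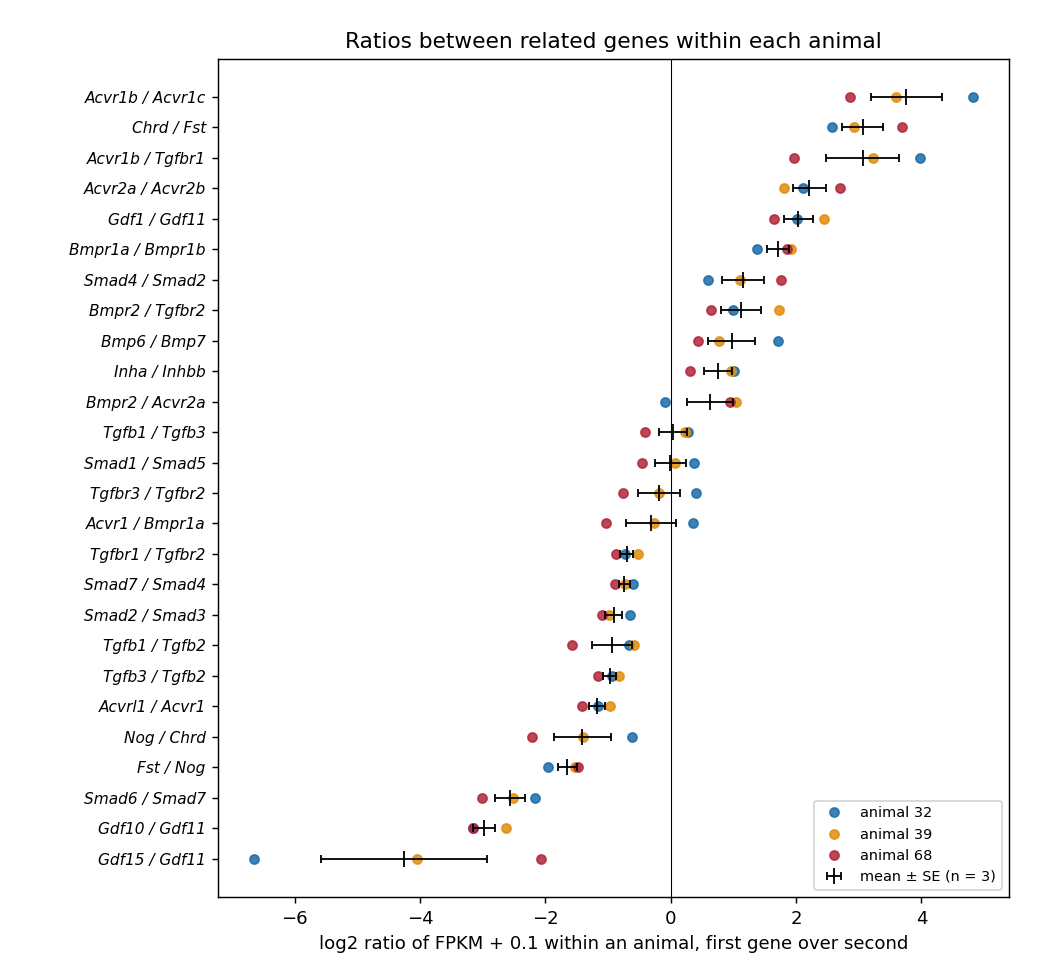
Within-animal log2 ratios of FPKM + 0.1 for the 26 pairs of related genes with both means at 1 FPKM or more, as 1 point an animal, with the mean and SE in black (n = 3). Acvr1b over Acvr1c is the largest positive ratio (3.76), the points of 5 pairs lie on both sides of 0, and the lowest pair, Gdf15 over Gdf11, rests on a value of 0 in animal 32.

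More members were higher than lower in animal 68, as were more of all genes past the filter (1307 higher and 408 lower than in animal 32). Between animals 68 and 32, 9 of the 37 members past the filter were at least 2-fold higher in animal 68 (24.3%), against 9.77% of the 13378 genes past the filter. These were Bmp7 (3.97-fold), Bmp2k (2.99-fold), Tgfbr2 (2.85-fold), Tgfbr1 (2.58-fold), Bmpr1a (2.57-fold), Acvr1c (2.48-fold), Tgfb2 (2.28-fold), Bmpr2 (2.22-fold) and Gdf15, for which no fold is given against a value of 0. At least 2-fold lower were 2 members (5.41%), against 3.05% of all genes past the filter. Nog was 3.06-fold lower in animal 68 and Fst 2.19-fold. Folds are on FPKM plus 0.1, and with 1 library an animal they carry no test. Among the 35 members at 1 FPKM or more in every animal, 8 were higher (22.9%, against 7.41% of the 12585 genes that meet this filter) and 1, Nog, was lower (2.86%, against 2.55%). Gdf15 passed the mean filter through the animal where it is high, so its call was fixed by the filter.

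By role, the receptors held most of the members that were higher in animal 68. Of 12 receptor genes, 5 were at least 2-fold higher and 0 lower. The TGF-beta ligand Tgfb2 and its receptor genes Tgfbr1 and Tgfbr2 were all among them, as were the BMP receptor genes Bmpr1a and Bmpr2. None of the 7 SMADs past the filter reached 2-fold in either direction, with log2 ratios from -0.35 for Smad2 to 0.84 for Smad5. Of 13 ligand genes past the filter, 3 were higher and 0 lower, or 2 of 12 without Gdf15. The shares of all genes past the filter to set beside these role counts were 9.77% higher and 3.05% lower. At those shares 0 of 7 does not set the SMADs apart. The 2 members that were lower are both antagonists. With quantile normalization, 7 members were higher, without Acvr1c and Gdf15, and Nog and Fst were lower, against 6.62% higher and 4.99% lower of all genes. That scaling also moved the median log2 ratio of all genes between these animals from 0.07 to -0.05.

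Animal 39 lay between the others for each member that differed by 2-fold between animals 68 and 32. For other members, Gdf1, Chrd and Bmp6 among them, animal 39 was highest or lowest. Between animals 39 and 32, 3 members were at least 2-fold higher in animal 39 (Bmpr2, Acvr1c and Gdf15; 8.11%, against 2.59% of all genes past the filter) and 0 were lower (against 0.553%). Between animals 68 and 39, 4 were higher in animal 68 (Bmp7, Bmp2k, Tgfbr2 and Gdf15; 10.8% against 4.18%) and 2 were lower (Nog and Fst; 5.41% against 1.97%). Gdf15 is set against a value of 0 in animal 32. With 1 FPKM required in every animal, which leaves out Gdf15 and Fst, 2 of 35 members were higher in animal 39 than in animal 32 (5.71% against 1.27%) and 0 lower (against 0.342%), and 3 were higher in animal 68 than in animal 39 (8.57% against 2.67%) and 1 lower (2.86% against 1.37%). Bmpr2 and Acvr1c thus separated animal 32 from the others, and Tgfbr2, Bmp7 and Bmp2k separated animal 68. The median SD of the members over animals was 0.34 on the log2 scale, against 0.20 for all genes past the filter. Without animal 68 these were 0.16 and 0.11. The lowest SDs were those of Smad1 (0.01), Acvr2a (0.06), Bmp1 (0.07), Inhbb (0.08) and Acvr1 (0.08).

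**Figure D4:**
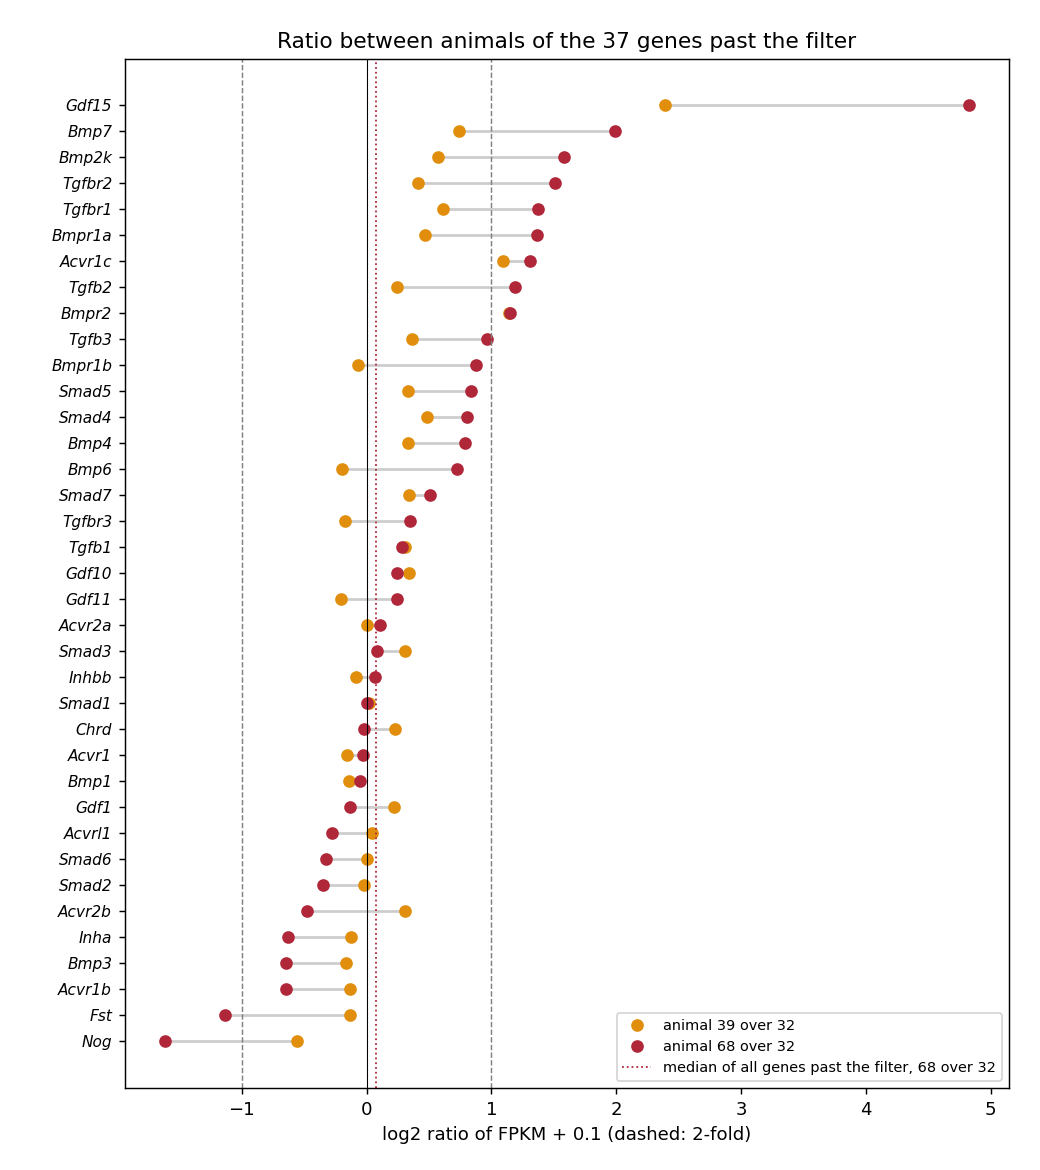
Log2 ratio of FPKM + 0.1 in animal 39 over 32 (orange) and in animal 68 over 32 (red) for each of the 37 members past the filter, ordered by the red points, with dashed lines at 2-fold. The red points of 9 genes lie past 2-fold on the right and those of Nog and Fst on the left, while the median of all genes (dotted) is at 0.07. The Gdf15 points are set against a value of 0 and give no fold.

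The sequences ahead of Tgfb2, its receptor genes and Nog are shown because the first 3 were higher together in animal 68 and Nog was lower. Each is the 250 bases before the gene's start in the RefSeq table of build GRCr8, a later build than that of the expression tables, printed 5′ to 3′ on the gene's strand. Of 52 member symbols, 38 had 1 entry in that table and 3 had more than 1. Capitals mark, on either strand, the GC box GGGCGG and the CCAAT box, the E-box CACGTG, the SMAD box CAGAC, the GC-rich element GGCGCC of BMP-responsive promoters and the TATA box TATAAA. The windows are chr13:100792686-100792935 (minus strand) for Tgfb2, chr5:66449148-66449397 (plus strand) for Tgfbr1, chr8:124761470-124761719 (minus strand) for Tgfbr2 and chr10:74627502-74627751 (minus strand) for Nog.
Tgfb2: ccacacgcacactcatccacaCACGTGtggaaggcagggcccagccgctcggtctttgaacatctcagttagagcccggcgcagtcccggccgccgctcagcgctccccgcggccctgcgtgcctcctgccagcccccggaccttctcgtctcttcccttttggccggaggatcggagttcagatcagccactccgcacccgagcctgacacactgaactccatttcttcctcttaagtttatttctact
Tgfbr1: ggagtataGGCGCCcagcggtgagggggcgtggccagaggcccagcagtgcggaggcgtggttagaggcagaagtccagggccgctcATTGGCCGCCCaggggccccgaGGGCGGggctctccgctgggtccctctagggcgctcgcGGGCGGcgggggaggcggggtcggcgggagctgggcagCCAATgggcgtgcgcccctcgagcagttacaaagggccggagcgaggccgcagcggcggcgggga
Tgfbr2: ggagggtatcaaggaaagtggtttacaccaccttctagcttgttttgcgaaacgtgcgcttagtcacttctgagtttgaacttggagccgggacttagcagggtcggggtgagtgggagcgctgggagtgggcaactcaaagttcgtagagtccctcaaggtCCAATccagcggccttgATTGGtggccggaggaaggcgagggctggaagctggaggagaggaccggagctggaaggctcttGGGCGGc
Nog: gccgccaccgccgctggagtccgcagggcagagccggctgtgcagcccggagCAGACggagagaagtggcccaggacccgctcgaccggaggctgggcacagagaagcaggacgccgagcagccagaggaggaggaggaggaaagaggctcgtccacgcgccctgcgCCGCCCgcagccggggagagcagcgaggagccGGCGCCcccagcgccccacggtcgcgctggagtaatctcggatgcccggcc

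The 3 genes that were higher together shared none of these motifs across all their windows. The Tgfb2 window held 1 E-box, at position -229 from the start, a motif found in 5.59% of all 33469 windows. The Tgfbr1 window held 3 GC boxes, 2 CCAAT boxes and 1 GGCGCC element, and the Tgfbr2 window 1 GC box at position -7 and 2 CCAAT boxes at -88 and -71. The Nog window held 1 SMAD box at -198, 1 GGCGCC element at -51 and 1 GC box at -83. The SMAD box is in 42.9% of all windows, the GC box in 30.5%, the CCAAT box in 34.0% and the GGCGCC element in 8.69%. No TATA box match lay in these 4 windows, against 12.9% of all windows. Adjacent matches can touch, as the CCAAT box and the GC box at -163 and -158 of Tgfbr1 do. A match is a string of letters and not a measured binding site.

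Over the 38 members with 1 window, GC content was higher than in the table as a whole. Its median was 63.2%, against 51.2% for all windows. The GC box was in 22 of the 38 windows (57.9%) and the GGCGCC element in 10 (26.3%), while the SMAD box was in 11 (28.9%). The windows of Bmpr1a and Smad4 had a GC content of 28.4 and 30.8%, and that of Acvr1b 79.6%.

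The other genes of the pathway were taken from lists of 84 symbols, of which 78 were found and 62 passed the filter. Of these 62, 11 were at least 2-fold higher in animal 68 than in animal 32 and 3 were at least 2-fold lower, against the 9.77% and 3.05% given above for all genes. These counts include Thbs1, Thbs2 and Gfral, and each of them passed the mean filter through the animal where it was high. The same 9.77% and 3.05% stand beside the counts of each pathway list below. Proteins that bind and activate latent TGF-beta had 12 of 14 genes past the filter, of which 5 were higher and 0 lower. The 5 include Thbs1 and Thbs2, which passed the mean filter through animal 68, so the filter favoured their calls. They also include Nrros and Pcsk6, which lay just above the 2-fold cut. The integrin subunit Itgav (16.4, 14.6 and 14.2 FPKM), the latency binding genes Ltbp3 (15.7, 13.2 and 13.4) and Ltbp4 (12.04, 11.7 and 10.3) and the protease Furin (11.0, 12.04 and 14.03) were the most abundant, and none of them differed by 2-fold. Itgb8, whose protein pairs with that of Itgav to release TGF-beta, measured 3.33, 6.36 and 17.1 FPKM. The thrombospondins Thbs2 (0.884, 1.07 and 6.43 FPKM) and Thbs1 (0.462, 0.734 and 2.11 FPKM) had the same order of animals.

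Further antagonists behaved unlike one another. Of 16 found, 12 passed the filter, with 1 higher and 2 lower in animal 68. Nbl1, a secreted BMP antagonist, measured 38.4, 55.5 and 41.6 FPKM, above Chrd in every library. Crim1 measured 16.0, 20.4 and 18.9 FPKM. Sostdc1, a BMP and Wnt antagonist, measured 0.0685, 4.29 and 57.5 FPKM, so that it was the most abundant of this list in animal 68 and near 0 in animal 32. Decorin (Dcn), a matrix protein that binds TGF-beta, measured 10.3, 9.31 and 17.1 FPKM. Bmper (6.58, 5.28 and 2.11 FPKM) and Fstl4 (12.03, 9.64 and 4.39 FPKM) were lowest in animal 68, as Nog and Fst were.

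Of the co-receptor and other ligand genes, few differed by 2-fold. Of 11 found, 6 passed the filter, with 0 higher and 1, Gfral, lower, which is too few to set against the shares of all genes. Gfral was under 1 FPKM in animals 39 and 68. It passed the mean filter through animal 32, where it was high, so the filter favoured its call. Rgmb and Rgma, BMP co-receptors on neurons, measured 22.8, 20.6 and 19.0 FPKM and 10.9, 11.4 and 12.4 FPKM. Their binding partner Neo1 measured 13.0, 18.0 and 24.7 FPKM. Endoglin (Eng), the endothelial co-receptor, measured 8.59, 7.82 and 8.92 FPKM. Tmem219 measured 2.54, 1.94 and 3.29 FPKM, and Tdgf1 was listed at 0 in every library.

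Regulators of SMADs were abundant and mostly level. All 22 were found and 21 passed the filter, with 1 higher and 0 lower, against 9.77% and 3.05% of all genes past the filter. Counts this small do not set the list apart from other genes. Fkbp1a, whose product holds type I receptors inactive, measured 369, 389 and 382 FPKM, the phosphatase gene Ppm1a 41.3, 38.8 and 36.4, and Strap 37.6, 33.8 and 35.6. The one that was higher was Zeb2, a SMAD-binding repressor also known from oligodendrocytes, at 29.3, 48.1 and 63.9 FPKM. Skil, a SMAD corepressor induced by TGF-beta, measured 12.1, 18.5 and 21.1 FPKM, and Zfyve16, a SMAD anchor of endosomes, 3.13, 3.81 and 5.14 FPKM.

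Common transcriptional targets had 11 of 15 found genes past the filter, with 4 higher and 0 lower in animal 68. The Id genes, classical BMP targets, did not share a pattern: Id3 measured 16.9, 27.0 and 36.6 FPKM, Id4 7.02, 6.72 and 14.4 FPKM, Id1 14.2, 14.9 and 15.0 FPKM and Id2 30.6, 27.1 and 21.1 FPKM. Msx1 measured 1.83, 4.90 and 24.1 FPKM and Tgfbi 1.56, 2.93 and 7.70 FPKM. Junb measured 13.0, 15.1 and 21.0 FPKM. Id3 was 2.16-fold and Id4 2.04-fold higher in animal 68 than in animal 32, and Id1 differed by 1.05-fold.

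Markers of several cell types differed between animals along with the members above, and their part in those differences was not tested. Of 11 choroid plexus genes found (Ttr, Enpp2 and Mfrp highest), 11 were at least 2-fold higher in animal 68 than in animal 32, and their summed level was 61.1, 711 and 8288 FPKM. Of these, F5, Slc4a5 and Tmem72 passed the mean filter through animal 68, so their calls were fixed by the filter. Of 7 ependymal genes past the filter (Rarres2, Fam183b and Dynlrb2 highest), 6 were higher, with sums of 25.7, 42.9 and 94.1 FPKM. Of 12 oligodendrocyte genes (Mbp and Cnp among them), 11 were higher, with sums of 3520, 5412 and 9502 FPKM. In these lists the summed level was highest in animal 68, as were Bmp7, Tgfb2 and the receptor genes named above.

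Other glial and striatal lists were also highest in animal 68. Oligodendrocyte precursor genes (Olig1, Sox10 and Gpr17 highest, Neu4 listed at 0) had 6 of 8 higher and sums of 106, 158 and 246 FPKM. Astrocyte genes (S100b, Glul and Aldoc highest) had 6 of 12 higher and sums of 1440, 1533 and 2524 FPKM. Microglial genes (C1qa and Csf1r among them) had 5 of 12 higher and sums of 88.6, 127 and 175 FPKM. One of the 5, Itgam, passed the mean filter through animal 68, so its call was fixed by the filter. Striatal neuron genes (Ppp1r1b and Penk among them) had 7 of 10 higher, with sums of 161, 138 and 281 FPKM. In these lists 0 genes past the filter were lower in animal 68 by 2-fold.

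Cortical neuron markers had the opposite order in their sums, but not gene by gene. Of 11 glutamatergic genes (Nrgn, Camk2a and Slc17a7 highest), 1 was at least 2-fold higher in animal 68 and 4 were lower, with sums of 2411, 2379 and 1785 FPKM. Of 12 GABAergic genes (Sst, Pvalb and Lamp5 highest), 1 was higher and 3 were lower, with sums of 673, 590 and 387 FPKM. The genes that were higher were Neurod6 (47.3, 78.4 and 107 FPKM) and Adarb2 (2.09, 3.76 and 4.30 FPKM). By any size, 3 of the 11 and 3 of the 12 genes were higher in animal 68 than in animal 32. Slc17a7 (521, 537 and 495 FPKM), Gad2 (61.1, 55.0 and 58.4 FPKM) and Slc32a1 (33.0, 32.3 and 31.2 FPKM) were nearly level. Among members, Nog, Fst, Acvr1b, Inha, Bmp3, Smad2 and Smad6 were lowest in animal 68 and highest in animal 32.

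Vessel and blood markers differed less. By 2-fold, 0 of 10 endothelial genes (Itm2a, Cldn5 and Slco1a4 highest; sums 142, 129 and 119 FPKM), 0 of 12 mural cell genes (Rgs5, Tagln and Myl9 highest; sums 133, 170 and 139 FPKM) and 0 of 5 blood genes past the filter (Hba1, Hba2 and Hbb highest; sums 645, 866 and 838 FPKM) differed between animals 68 and 32. Meningeal and fibroblast genes (Ptgds, Igf2 and Col3a1 highest) had 2 of 9 higher and 2 lower, and Col1a2 and Ogn were listed at 0. Their sums of 647, 944 and 715 FPKM were mostly Ptgds (613, 896 and 628 FPKM). Higher in animal 68 were Igf2 (5.71-fold) and Lum (2.29-fold), and lower were Slc22a6 (4.26-fold) and Aldh1a2 (2.51-fold). Like the vessel markers, the endothelial receptor gene Acvrl1 and the co-receptor gene Eng were within 2-fold.

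**Figure D5:**
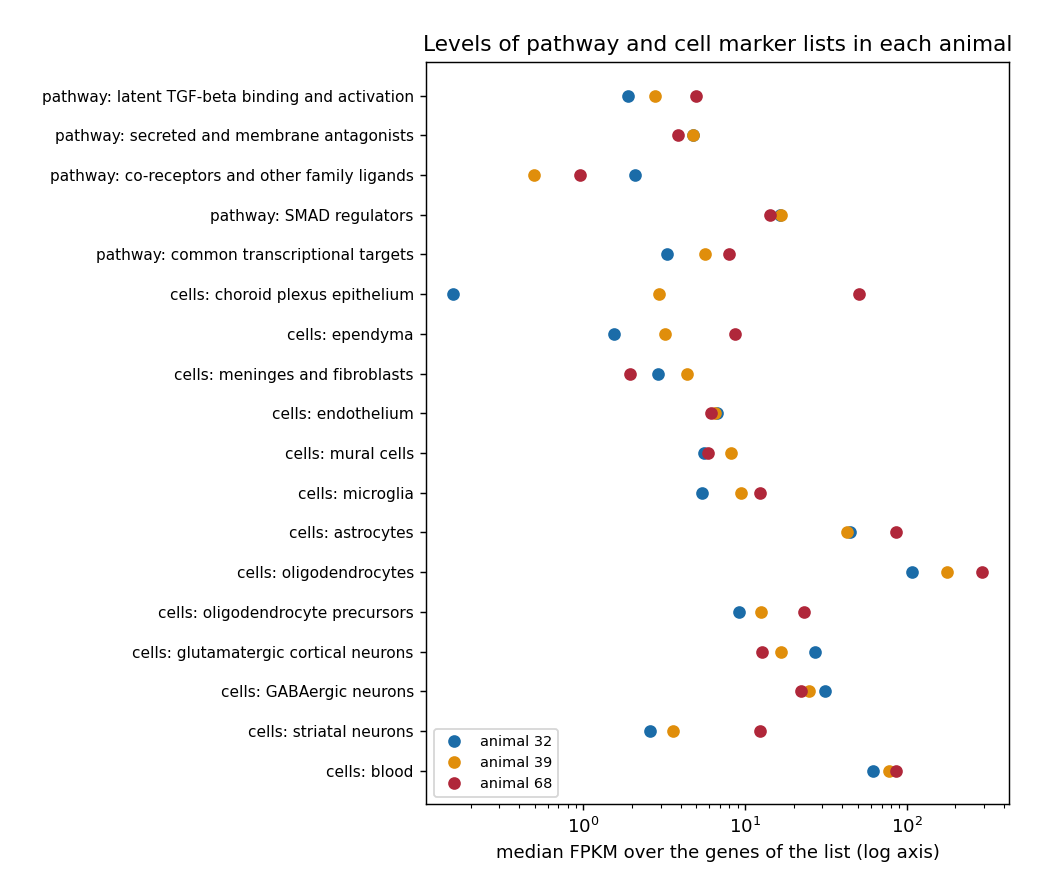
Median FPKM (log axis) of each pathway list and each cell marker list in the 3 animals. The choroid plexus list spans 0.155 to 51.0 FPKM, the glial and striatal lists have animal 68 on the right, the cortical neuron lists have it on the left, and the endothelial points nearly coincide.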

How the data were processed

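Per the labels' protocols, mRNA was taken from purified total RNA of motor cortex and fragmented for 1 library an animal. Each deposited table gives FPKM per gene, which the authors computed with a Perl script after counting and normalizing fragments, according to the series' design text. HISAT2 2.0.4, StringTie 1.3.0 and the build Rnor_6.0 appear in the submitters' processing notes with no stated role. For annotation release and strand, the settings were not given in the sources used here.

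The members and lists were chosen with earlier results of these data known. Values were analysed as log2(FPKM + 0.1) with Python 3.11.15, pandas 2.3.3, numpy 2.4.6 and scipy 1.17.1, and plotted with matplotlib 3.10.9. Genes were kept at a mean of 1 FPKM or more. Depth was inferred from loci of up to 400 bases, where 82.0 to 86.6% of detected genes fell within 0.02 fragments of whole reads, partly by construction. With 1 group, comparisons are between animals (a ratio of at least 2-fold, no test) and between genes within animals (exact two-sided sign-flip permutation test). For pairs with Tgfbr1 the gene ID with the higher mean was used. The computations were tested on simulated data. Alternatives changed the pseudocount, the filter and the scaling, and left out each animal in turn. Genes named by rule were members past the filter, members listed at 0, the highest other member of each role, in each pathway list the 4 highest and 3 most variable genes, and in each marker list up to 3 of the highest, of which some are not reported here. Further low members, Id4, and the 4 promoter windows (RefSeq, GRCr8), were chosen after their values were seen.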

Additional observations from a re-analysis of the deposited data

How the results depend on the processing

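The members past the filter (37) numbered 35 to 38 under the alternatives run. The 21 of 26 pairs with a common direction became 20 of 25 with quantile normalization, 25 of 30 with no filter and 5 of 9 with a mean of at least 5 FPKM. With 1 animal left out they numbered 21 to 24, but there only 2 animals had to share the direction. These counts are thus not on the same footing as the 21. The count of 9 members at least 2-fold higher in animal 68 than in animal 32 became 5 of 20 with a mean of at least 5 FPKM, against 5.99% of all genes. The count of 2 lower members became 1 with a pseudocount of 1 (all genes 2.15%), 4 of 53 with no filter (3.34%), 0 of 20 with a mean of at least 5 FPKM (2.48%), and 1 of 35 with 1 FPKM required in every animal (2.55%). That last setting and the counts without Gdf15 were chosen after seeing the data. Counts this small say little about the members. The median SD of members (0.34) ranged from 0.16 without animal 68 to 0.46 without animal 39. Leaving out 1 animal turned the direction of 4 pair ratios. Tgfb1 over Tgfb3 ranged from -0.0891 without animal 32 and -0.0609 without animal 39 to 0.25 without animal 68, Acvr1 over Bmpr1a from -0.65 to 0.0488, Tgfbr3 over Tgfbr2 from -0.47 to 0.109 and Smad1 over Smad5 from -0.20 to 0.22, the positive values all without animal 68. The other 125 pair values kept their sign. The cause of the other shifts was not tested. No paired analysis was possible because there is 1 group. With 3 animals the sign-flip test of a single pair cannot pass 0.05, and depth limits what the members under 1 FPKM can show.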
